A study of Mus musculus with 2 samples.

Results

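The eicosanoid synthesis enzymes described here are the 10 genes Ptgs1, Ptgs2, Ptges, Alox5, Alox5ap, Lta4h, Ltc4s, Pla2g4a, Hpgds and Tbxas1. They were taken by symbol from the deposited gene table, and all 10 were found among its 55414 genes. Polyadenylated RNA had been sequenced from a mouse macrophage line, spelled RAW246.7 in the labels. In the stretched group the cells were under 20% elongation strain for 24 h, and in the control group under an elongation strain that the labels call normal, with no value, also for 24 h. No label says whether the strain was cyclic or static, or what loading, if any, the normal condition was. Each group had 1 library, so the variation between cultures was not measured, and no p-value is given. Synovial membrane is also given as the tissue, although the cells named are a cultured line, so these are values of a line and not of a joint.

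Eicosanoids are short-lived signalling lipids made from arachidonic acid. A phospholipase frees the fatty acid from membranes, and it is then turned either into prostaglandin H2 by the cyclooxygenases, from which separate synthases make prostaglandin E2, prostaglandin D2 and thromboxane, or into leukotriene A4 by 5-lipoxygenase. Macrophages are known to make both classes, and Ptgs2, the inducible cyclooxygenase, is a classical inflammatory gene, whereas Ptgs1 is regarded as the constitutive form.

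The 4 start regions shown here belong to the genes on which the results below turn: those of both cyclooxygenase genes, and both of Pla2g4a, whose 2 leading transcripts begin at separate sites. They come from RefSeq on GRCm38.p6, which is not the build of the deposited tables (GRCm39). Each runs 5′ to 3′ from 250 bases before the annotated start to 50 after it, and capitals mark matches to the motifs named after them.
Ptgs2, chr1:150099781-150100080, plus strand: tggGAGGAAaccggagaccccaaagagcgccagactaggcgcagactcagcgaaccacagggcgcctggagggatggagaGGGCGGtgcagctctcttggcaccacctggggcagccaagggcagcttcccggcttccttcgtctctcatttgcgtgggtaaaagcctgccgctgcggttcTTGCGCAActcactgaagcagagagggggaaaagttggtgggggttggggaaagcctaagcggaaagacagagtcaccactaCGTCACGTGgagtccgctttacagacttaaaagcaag
Ptgs1, chr2:36230176-36230475, plus strand: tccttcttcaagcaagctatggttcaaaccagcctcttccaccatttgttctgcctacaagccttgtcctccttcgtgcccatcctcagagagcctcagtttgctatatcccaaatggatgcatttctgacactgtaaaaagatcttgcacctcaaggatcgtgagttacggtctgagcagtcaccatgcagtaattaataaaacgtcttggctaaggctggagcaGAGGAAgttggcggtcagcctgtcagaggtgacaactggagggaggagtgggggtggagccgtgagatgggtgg
Pla2g4a upstream start, chr1:149961241-149961540, minus strand: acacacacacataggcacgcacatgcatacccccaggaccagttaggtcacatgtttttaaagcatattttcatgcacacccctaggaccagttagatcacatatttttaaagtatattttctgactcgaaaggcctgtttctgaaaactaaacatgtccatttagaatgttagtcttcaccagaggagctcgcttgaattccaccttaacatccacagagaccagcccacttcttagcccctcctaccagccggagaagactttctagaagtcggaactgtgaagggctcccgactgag
Pla2g4a internal start, chr1:149922390-149922689, minus strand: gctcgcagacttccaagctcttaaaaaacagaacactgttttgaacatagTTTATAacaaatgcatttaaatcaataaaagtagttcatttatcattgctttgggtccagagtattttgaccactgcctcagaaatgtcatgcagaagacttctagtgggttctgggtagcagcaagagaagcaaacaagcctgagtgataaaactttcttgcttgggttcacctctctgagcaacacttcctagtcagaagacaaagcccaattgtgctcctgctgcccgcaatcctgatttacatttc

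Not counting any window off the chromosome of its member, RefSeq held 10 such windows for 9 of the members, 2 of them for Pla2g4a. A total of 6 motifs, chosen after the sequences had been seen, were searched on both strands of each. Ptgs2 was the only member window with TTGCGCAA, a palindrome of the C/EBP type, which began 69 bases before the start and was in 0.183% of 32851 mouse windows. After its annotated start, the Ptgs2 window held CACGTG (the E-box, in 7.15% of all windows). Overlapping that E-box on the opposite strand was TGACG, a piece of the cAMP response element that 20.8% of all windows held. The GC box GGGCGG was in the Ptgs2 window as well, in 3 of the 10 member windows and in 35.7% of all. The Ptgs1 window held GAGGAA, a core of sites for the myeloid factor PU.1, and no other of these motifs. This core was in 8 of the 10 member windows, Ptgs2 among them, and in 28.3% of all windows. The upstream Pla2g4a window held no match. The internal Pla2g4a window held TATAAA, the TATA box, on the opposite strand, 200 bases before the start; 13.6% of all windows held it. These matches describe letters and not binding.

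Ptgs2 was the member with the largest difference, and it was higher after stretching. The gene (ENSMUSG00000032487, chromosome 1, 149975782 to 149983978, plus strand, GRCm39) had 727 estimated counts in the stretched library and 291 in the control library. Its level, in FPKM (fragments per kilobase, adjusted for sequencing depth), was 11.2 in stretched (95% counting interval 10.4 to 12.1) and 3.99 in control (3.55 to 4.48), and these intervals did not overlap. After scaling by library size the stretched value was 2.72-fold that of control, a log2 difference of 1.45 with a counting interval of 1.25 to 1.65. All of its counts were assigned to its protein-coding transcript in both libraries. The authors' deposited table lists Ptgs2 as up, with a log2 fold change of 1.45, and lists none of the other 9 members as changed. With 1 library a group, the p-values of that table cannot rest on a measured spread between cultures.

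Ptgs1 differed the other way. The gene (ENSMUSG00000047250, chromosome 2, 36120438 to 36142284, plus strand) had 72 counts in the stretched library and 144 in control. Its level was 1.81 FPKM in stretched (1.42 to 2.28) and 3.31 FPKM in control (2.79 to 3.90). The stretched value was 1.83-fold lower, a log2 difference of -0.87 (-1.30 to -0.46). The ratio of Ptgs2 to Ptgs1 FPKM was 6.19 in the stretched library and 1.21 in control. In control, the counting intervals of the FPKM values of both cyclooxygenase genes overlapped, and in stretched they did not. Their summed level was 13.0 FPKM in stretched and 7.30 FPKM in control. Since the RNA came from a whole culture, fewer cells with a transcript and less transcript per cell cannot be told apart, here and below.

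The size rule asked for 20 or more counts in the libraries together, a difference of 2-fold or more, and a 95% counting interval on one side of no difference. All 10 members passed the count filter. By this rule 1 member, Ptgs2, was higher, against 3.12% of all 12772 genes past the filter, and 0 members were lower, against 1.94%. At 1.5-fold, 1 member was higher, again Ptgs2 (6.20% of all genes), and 1 was lower, Ptgs1 (3.64% of all genes). The median log2 difference of the members was -0.05 and that of all genes past the filter -0.0014. Ptgs2 stood at percentile 98.5 and Ptgs1 at percentile 2.74 of the log2 differences of all these genes, while the other 8 lay between percentile 11.0 (Pla2g4a) and 92.6 (Ptges).

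**Figure D1:**
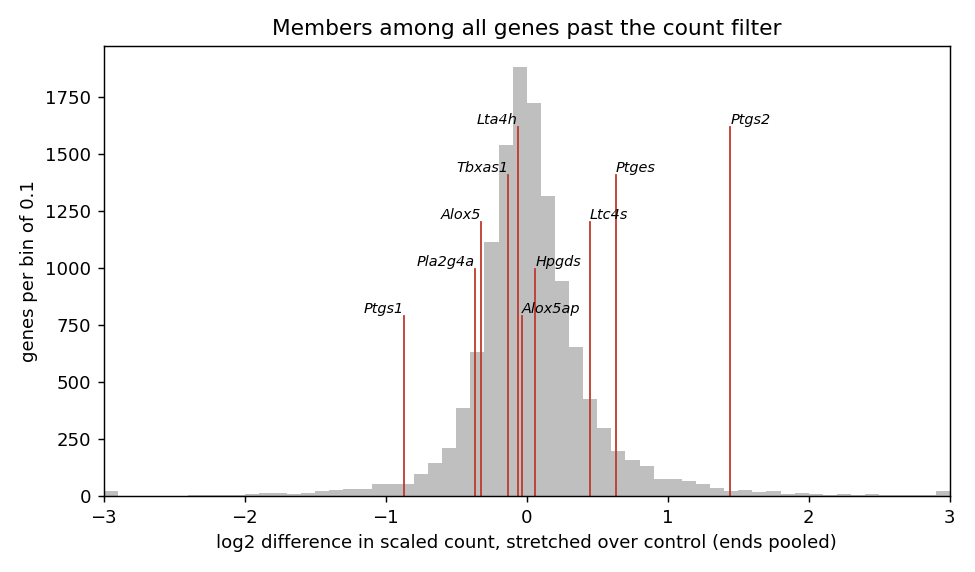
Histogram of the log2 difference in scaled count, stretched over control (x axis, bins of 0.1), for the 12772 genes with at least 20 counts (y axis, genes per bin; values beyond the ends are pooled in the outer bins), with a red line for each of the 10 members; line heights only separate the names. Ptgs2 at 1.45 and Ptgs1 at -0.87 lie in the outer parts of the distribution and the other 8 lie nearer its centre.

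Pla2g4a encodes cytosolic phospholipase A2 alpha, the enzyme that frees arachidonic acid on calcium signals. The gene (ENSMUSG00000056220, chromosome 1, 149705369 to 149837041, minus strand) had 3129 counts in the stretched library and 4401 in control. It was at 75.5 FPKM in stretched (72.8 to 78.1) and 94.4 FPKM in control (91.6 to 97.2), without overlap of the counting intervals. Its log2 difference of -0.37 (-0.43 to -0.30), a stretched value 1.29-fold lower, met neither size rule. Pla2g4a was the highest member in control and came after Alox5ap in stretched.

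None of the 3 members that act on prostaglandin H2 met a size rule. Hpgds, the prostaglandin D synthase of blood cells (ENSMUSG00000029919, chromosome 6, 65094277 to 65121892), had 2101 counts in stretched and 2196 in control. Its levels were 42.1 FPKM in stretched (40.3 to 44.0) and 39.9 FPKM in control (38.2 to 41.6), and its log2 difference was 0.06 (-0.03 to 0.15). These intervals overlapped, so a difference was not detectable at this depth. A pseudogene model on the opposite strand overlaps Hpgds and held 48 counts in stretched and 37 in control.

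Ptges encodes the inducible microsomal prostaglandin E synthase (ENSMUSG00000050737, chromosome 2, 30779483 to 30819875), which works together with Ptgs2 in inflamed cells. It had only 30 counts in stretched and 21 in control, and 0.860 FPKM in stretched and 0.651 in control. The log2 difference of 0.63 had a counting interval of -0.21 to 1.52, so a difference in either direction was within counting error. Tbxas1, the thromboxane A synthase (ENSMUSG00000029925, chromosome 6, 38852338 to 39061519), was the lowest member, with 15 counts in stretched and 18 in control and 0.338 FPKM in stretched and 0.260 in control. Its log2 difference by counts was -0.13 (-1.23 to 0.93), while its FPKM ratio, stretched over control, was 1.30, so the sign depends on how transcripts of different length are weighted. Only 3 of the 15 Tbxas1 counts in stretched and 0 of the 18 in control were assigned to a protein-coding transcript, and the rest to transcripts with a retained intron. A coding share of up to 18.5% in control is within the exact binomial interval. Hipk2, on the opposite strand, overlaps Tbxas1 and held 736 counts in stretched and 793 in control.

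Of the leukotriene genes, Alox5ap, Lta4h and Alox5 were among the more abundant members, while Ltc4s ranked 6 by FPKM in both libraries. No leukotriene gene among the members met a size rule. Alox5, 5-lipoxygenase itself (ENSMUSG00000025701, chromosome 6, 116387038 to 116438139), had 1003 counts in stretched and 1369 in control. It was at 24.3 FPKM in stretched (22.9 to 25.9) and 29.5 FPKM in control (28.0 to 31.1). The log2 difference was -0.32 (-0.44 to -0.20), beyond counting error and under 1.5-fold. Alox5ap encodes FLAP, the membrane protein that presents arachidonic acid to 5-lipoxygenase (ENSMUSG00000060063, chromosome 5, 149201577 to 149224963). Its 1652 counts in stretched and 1845 in control gave 91.3 FPKM in stretched and 91.5 in control, with a log2 difference of -0.03 (-0.13 to 0.06).

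Lta4h, the hydrolase that turns leukotriene A4 into leukotriene B4 (ENSMUSG00000015889, chromosome 10, 93289273 to 93320737), had 979 counts in stretched and 1117 in control, and 34.3 FPKM in stretched and 34.7 in control. Its log2 difference of -0.06 (-0.19 to 0.06) was within counting error. Ltc4s, the synthase that joins leukotriene A4 to glutathione (ENSMUSG00000020377, chromosome 11, 50127288 to 50129443), had 145 counts in stretched and 116 in control. Its levels of 15.5 FPKM in stretched (13.1 to 18.2) and 10.7 FPKM in control (8.80 to 12.8) did not overlap. The log2 difference of 0.45 (0.09 to 0.81) met neither size rule. A noncoding gene model on the opposite strand overlaps Ltc4s and held 60 counts in stretched and 46 in control, and another over Alox5ap held 21 in stretched and 36 in control. The strand setting of the counting is not stated in the labels or files, and what such models contribute to Hpgds, Tbxas1, Alox5ap or Ltc4s was not tested.

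**Figure D2:**
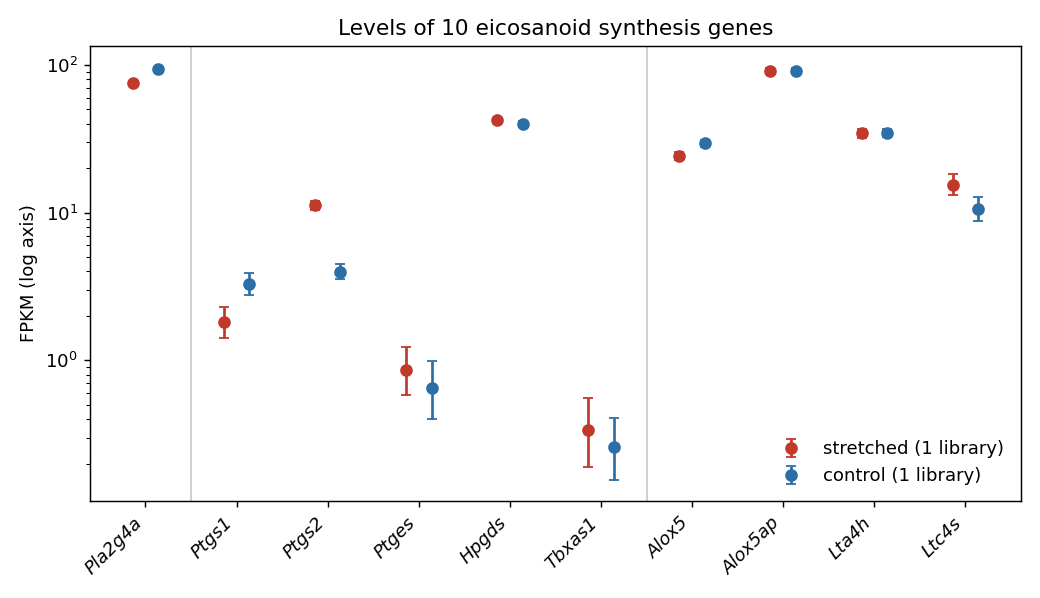
Level of each of the 10 members (x axis, phospholipase, prostanoid and leukotriene genes separated by grey lines) in FPKM on a log axis, in the stretched library (red) and the control library (blue), with 95% Poisson counting intervals. Ptgs2 is higher and Ptgs1 lower in stretched, and the points of Alox5ap and Lta4h nearly coincide.

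**Figure D3:**
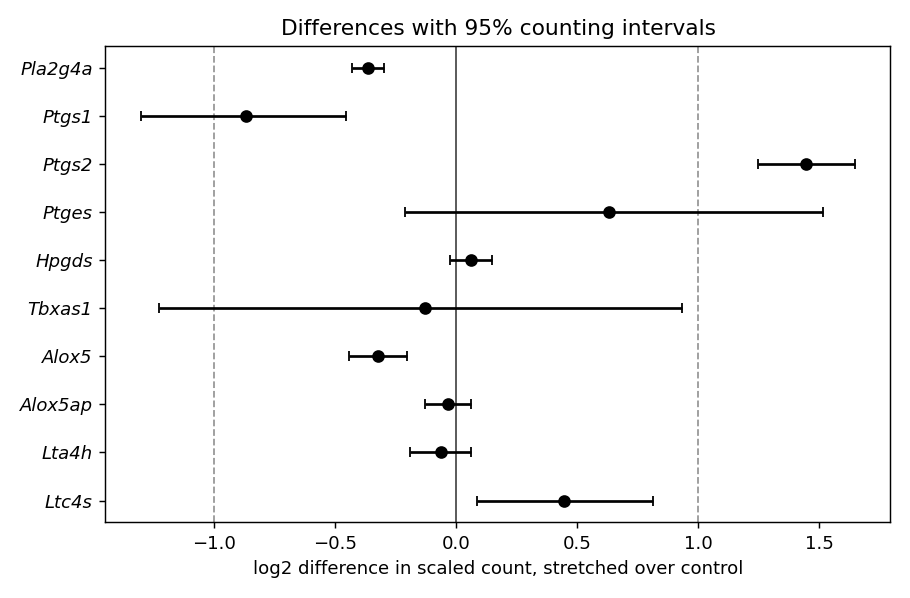
Log2 difference in scaled count, stretched over control (x axis), for each member (y axis), with 95% conditional binomial counting intervals; the solid line marks no difference and the dashed lines mark 2-fold. Ptgs2 is the one member beyond a dashed line, and the intervals of Ptges and Tbxas1 are the widest.

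Within a library, levels per kilobase spanned 270-fold from Tbxas1 to Alox5ap in stretched and 363-fold from Tbxas1 to Pla2g4a in control. The order in stretched was Alox5ap, Pla2g4a, Hpgds, Lta4h, Alox5, Ltc4s, Ptgs2, Ptgs1, Ptges and Tbxas1, and the counting intervals of no neighbours in it overlapped. In control, Pla2g4a and Alox5ap exchanged places, and the rest of the order was the same. There, 3 neighbouring pairs overlapped: Pla2g4a with Alox5ap, Ptgs2 with Ptgs1, and Ptges with Tbxas1. Summed over the 10 members, the level was 297 FPKM in stretched and 309 FPKM in control, of which Alox5ap made up 30.7% in stretched and 29.6% in control. Pla2g4a made up 25.4% of it in stretched and 30.6% in control.

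The smaller Pla2g4a count in stretched was not shared by both of its main transcripts. The transcript from the upstream start (ENSMUST00000070200) had 2626 counts in stretched and 4155 in control, a log2 difference of -0.54 (-0.61 to -0.47). The transcript from the internal start (ENSMUST00000111926) had 500 counts in stretched and 239 in control, a log2 difference of 1.19 (0.97 to 1.42). It took 16.0% of the gene's counts in stretched (exact binomial 95% interval 14.7% to 17.3%) and 5.43% in control (4.78% to 6.14%). In the GENCODE M21 annotation (GRCm38), which gives both transcripts the same lengths as the deposited table, the starts lie 38851 bases apart on chromosome 1. Both transcripts share 16 coding exons and differ at the first coding exon, which holds 33 coding bases from the upstream start and 9 from the internal start. Shifts of this size were common in these libraries: the largest difference in a transcript's share was at least 10 percentage points in 29.2% of 5645 genes with at least 1000 counts and 2 transcripts, and 27.8% had a larger one than Pla2g4a. Dividing reads between transcripts that share most of their exons is an estimate, and the counting intervals do not include its error.

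Among the other members in that set of 5645 genes, which were Alox5, Alox5ap, Lta4h and Hpgds, the largest difference in a transcript's share was 4.78 percentage points, for Hpgds. In that set, 44.0% of genes had a larger one than Hpgds. Of 16 member transcripts past the filter of 20 counts, 2 were higher by the 2-fold rule (those of Ptgs2 and the internal Pla2g4a start), against 13.3% of all transcripts past it, and 1 was lower, against 13.2%. The lower one was a coding Ltc4s transcript (ENSMUST00000125555) with 3 counts in stretched and 17 in control. On the few counts of Tbxas1, a retained-intron transcript (ENSMUST00000159226) took 46.7% in stretched (21.3% to 73.4%) and 5.56% in control (0.141% to 27.3%), and these intervals overlapped. The leading Ltc4s transcript (ENSMUST00000102772) had 109 counts in stretched and 68 in control. Its log2 difference of 0.80 (0.36 to 1.27) was beyond counting error and short of 2-fold. Its counts were 75.2% of the gene's counts in stretched (67.3% to 82.0%) and 58.6% in control (49.1% to 67.7%). The ends of these intervals overlapped, and Ltc4s had too few counts for the set of 5645 genes. Overlap of 2 such intervals, here and for Tbxas1, is not a test of a difference in share. For Hpgds, transcripts with a retained intron took 30.1% of counts in stretched (28.1% to 32.1%) and 25.5% in control (23.7% to 27.4%), and the coding transcript had 1469 counts in stretched and 1636 in control. For Ptgs1, Alox5, Alox5ap and Lta4h, coding transcripts held between 94.4% and 99.9% of counts in stretched and between 95.5% and 99.9% in control.

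**Figure D4:**
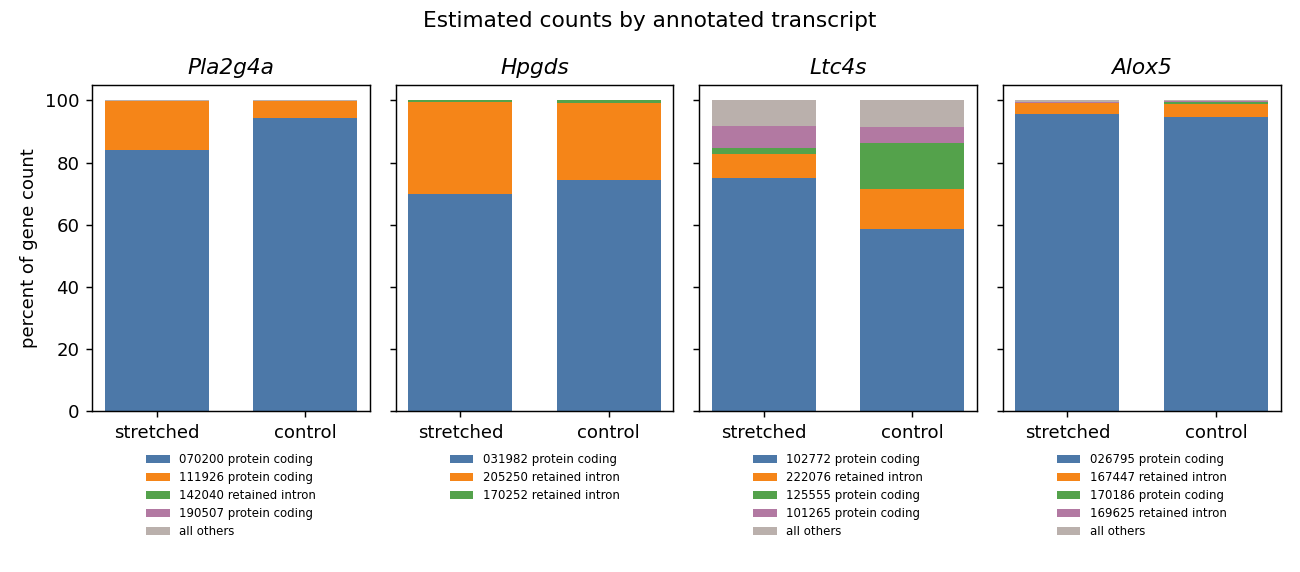
Percent of each gene's estimated counts (y axis) assigned to its annotated transcripts in the stretched library (left bar) and the control library (right bar) for Pla2g4a, Hpgds, Ltc4s and Alox5; colours mark transcripts, named in each legend by the last digits of their identifier and their biotype. For Pla2g4a the orange internal-start transcript is 16.0% in stretched and 5.43% in control.

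Among genes around these enzymes in the pathway, Pla2g4c was higher and Ltb4r1 lower by the 2-fold rule. Of 86 genes in 6 lists, 51 passed the count filter, and of those 1 was higher, 1 was lower and 49 met neither, with a median log2 difference of -0.0053. Over all genes past the filter, 3.12% were higher and 1.94% lower. At 1.5-fold, 5 of the 51 were higher and 2 lower, against 6.20% and 3.64% of all genes. Of 25 genes of arachidonate release and recycling, 18 passed and had a median of 0.03. Pla2g4c, a calcium-independent cytosolic phospholipase A2, was higher, with 36 counts in stretched and 17 in control (log2 difference 1.19, 0.34 to 2.13). The largest values under the rule were at Dagla, a diacylglycerol lipase, with 29 counts in stretched and 17 in control (0.88, -0.02 to 1.85, within counting error), and at Pla2g5, a secreted phospholipase A2. Pla2g5 had 1301 counts in stretched and 831 in control, and 46.7 FPKM in stretched and 26.8 in control (0.77, 0.65 to 0.90), a difference past 1.5-fold. In this list 3 genes were higher at 1.5-fold: Pla2g4c, Pla2g5 and, named after its values were seen, Pla2g2e, another secreted phospholipase A2, with 101 counts in stretched and 73 in control (0.59).

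Of 8 other prostanoid enzymes, 4 passed the filter, none met the 2-fold rule, and the median was 0.36. Akr1b3, an aldose reductase that can also make prostaglandin F2 alpha, had 4696 counts in stretched and 2972 in control (log2 difference 0.79, 0.72 to 0.85), and Ptges2, a membrane-associated prostaglandin E synthase, had 289 counts in stretched and 241 in control (0.39). Of 15 other lipoxygenase and leukotriene genes, 5 were listed at 0 in both libraries and 5 passed the filter, with a median of 0.02. None of those 5 met a size rule. Aloxe3, an epidermal lipoxygenase, had 13 counts in stretched and 17 in control (log2 difference -0.25, -1.42 to 0.87), while its FPKM was 0.458 in stretched and 0.260 in control, the opposite sign. Mgst3, a microsomal glutathione transferase, was at 0.11 (-0.10 to 0.33), and both genes were within counting error.

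Of 16 eicosanoid receptors, 6 were at 0 in both libraries and 5 passed the filter, with a median of -0.37. Ltb4r1, the high-affinity leukotriene B4 receptor, was lower, on 6 counts in stretched and 21 in control (log2 difference -1.60, -3.28 to -0.32). Ptgir, the prostacyclin receptor, had 820 counts in stretched and 541 in control (0.73, 0.57 to 0.88), and Ptger1, a prostaglandin E2 receptor, had 48 counts in stretched and 73 in control (-0.47, -1.04 to 0.07). Among 10 genes of transport and breakdown, 7 passed and none met the rule (median -0.04), with Abcc1, an exporter of leukotriene C4, at 0.33 and Ptgr2, a prostaglandin reductase, at -0.27. All 12 regulators passed and none met the 2-fold rule (median -0.06). Egr1, a transcription factor known to act at the Ptges promoter, had 663 counts in stretched and 1423 in control (-0.98, -1.11 to -0.84); with DESeq2 size factors it was past 2-fold, at -1.02. Creb1, which binds cAMP response elements, was at -0.31 (-0.41 to -0.21).

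**Figure D5:**
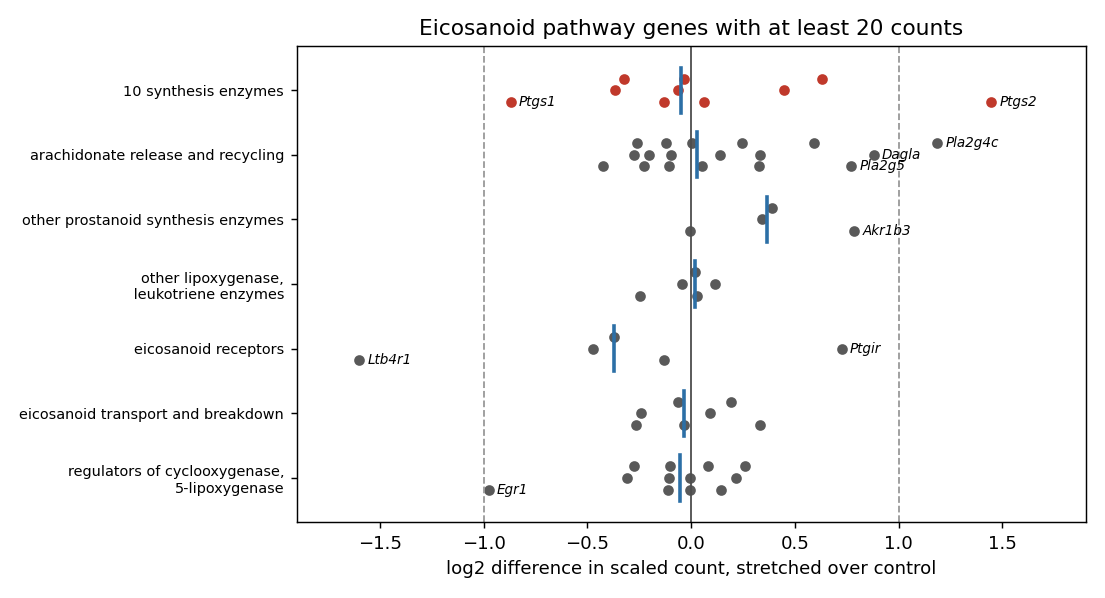
Log2 difference in scaled count, stretched over control (x axis), for the 10 members (red) and for the genes of 6 pathway lists with at least 20 counts over both libraries (grey), by list (y axis); blue bars are list medians, the solid line marks no difference and dashed lines mark 2-fold, and genes past 0.7 in either direction are named. Ptgs2 and Pla2g4c lie above 2-fold and Ltb4r1 below it.

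The stretched library held 13391645 counts and the control library 14769100. Counting error follows each member's own counts, so it was smallest for Pla2g4a and Hpgds and largest for Ptges and Tbxas1. Of 10 macrophage markers, 8 passed 20 counts, and their summed level was 7209 CPM (counts scaled to library size) in stretched and 5541 in control, led by Lyz2 with 43773 counts in stretched and 28385 in control; Mrc1 and Mertk were at most at 4 counts. Of those 8, Fcgr1 (log2 difference -0.41, -0.52 to -0.29) and Spi1 (-0.12, -0.20 to -0.05) were lower in stretched beyond counting error. Of 9 synovial fibroblast markers, 6, among them Col1a2, Pdgfra and Thy1, were at 0 in both libraries, and the list summed to 1.04 CPM in stretched and 1.16 in control. Mast cell, neutrophil and lymphocyte lists each summed to under 1 CPM, with Ms4a2 and Ly6g at 0. Platelet markers summed to 3.49 CPM in stretched and 4.90 in control. Of these, Pf4 and Ppbp were at 0, and the most abundant, Treml1, had 35 counts in stretched and 37 in control. Itga2b had 7 counts in stretched and 12 in control, and Gp9 had 0 in stretched and 2 in control. Gp1ba, with 5 in stretched and 21 in control, was lower by the 2-fold rule, as were 1.94% of all genes past the filter. Dendritic cell markers summed to 9.66 in stretched and 5.99 in control. Among them, Itgax had 95 counts in stretched and 13 in control (log2 difference 2.95, 2.15 to 3.96). It was higher by the 2-fold rule, as were 3.12% of all genes past the filter. Siglech, with 4 in stretched and 25 in control (-2.38, -4.50 to -0.98), was lower by that rule, as were 1.94%. Zbtb46 had 23 in stretched and 37 in control, and Xcr1 had 6 in stretched and 11 in control. Flt3 and Clec9a each had 1 count in either library, and Cd209a had 0 in both. Apart from Lyz2 and Itgax, these markers are named after their values were seen. The part of the macrophage, platelet and dendritic cell markers in the differences above was not tested.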

How the data were processed

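Polyadenylated RNA of 1 library a group was sequenced from a strand-marked (dUTP) preparation, per the labels' protocols. The submitters' processing notes name StringTie and GRCm39; aligner, versions and strand setting were not given in the sources used here, nor was a batch. The authors deposited whole-number estimated counts and FPKM values per gene and per transcript, and a table with a log2 fold change and p-values per the file headers, of which the p-values were not used. The deposited counts are coverage estimates rounded up: for 99.98% of transcripts in either library they lay within 0.05 of the range from FPKM times length times a constant per library to that product plus 1. Rounding up raises low counts.

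Counts were scaled with edgeR 4.0.16 (TMM factors 1.01 for stretched and 0.995 for control, over all genes) in R 4.3.3. Log2 differences are of scaled counts, stretched over control, with 0.5 counts added. Ratios have exact conditional binomial intervals, levels Poisson intervals and shares exact binomial ones, all at 95%, covering counting error only, since reads without molecular identifiers are not independent molecules. The interval and size rule were also run on simulated independent Poisson counts, the model that the interval assumes. Those counts held no rounding up, transcript assignment error or variation between cultures, so that run cannot show how the rule behaves with them. Named pathway genes are those past 2-fold and the 2 largest others of each list; members, lists and sizes were chosen with earlier results of these data known. Alternatives were other scaling (library totals, DESeq2 1.42.0 size factors), filters, a prior of 5, unrounded counts, log2 of FPKM plus 1 and sums over overlapping models. Deposited tables that repeat rows, and read totals, were not used.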

Additional observations from a re-analysis of the deposited data

How the results depend on the processing

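The 10 members' log2 differences, their counts past 2-fold and 1.5-fold and their median stayed within their counting intervals, or at the same count, under each alternative run. Ptgs2 ran from 1.29 (log2 of FPKM plus 1) to 1.46 (library totals) and Ptgs1 from -0.91 (DESeq2 size factors) to -0.62 (FPKM plus 1). The members' median, -0.05, was 0.04 on the FPKM-plus-1 scale, inside the medians of the members' interval bounds (-0.20 and 0.11). The sum over overlapping models was not run for the pathway lists beyond the members. The count of pathway genes past 2-fold, 1 higher and 1 lower, was less stable: 2 were lower with DESeq2 size factors, which move every log2 difference by -0.04 and so put Egr1 past 2-fold (-1.02); 3 were higher and 2 lower with no filter on counts; and 0 were higher and 0 lower with a filter of 100 counts, which removes Pla2g4c and Ltb4r1. On the scale of FPKM plus 1, which shrinks differences at low levels, 0 were higher and 0 lower. The share of the internal Pla2g4a transcript by FPKM, an alternative chosen after seeing the data, was 16.1% in stretched and 5.46% in control. No paired analysis was possible because each group had 1 library. Depth limits Ptges and Tbxas1 most, whose counting intervals are the widest of the members.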

Other observations

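A few of the 35 pathway genes under the filter of 20 counts had counts mostly in 1 library, and they are named because of those counts. How many of all genes under the filter were as uneven was not computed. Pla2g4b, another cytosolic phospholipase A2, had 13 counts in stretched and 3 in control, and Ggt5, which trims leukotriene C4, had 7 in stretched and 0 in control. Tbxa2r, the thromboxane receptor, had 0 counts in stretched and 7 in control, and Ptgdr2, a prostaglandin D2 receptor, had 1 in stretched and 8 in control. No fold is given at these counts.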
